A study of Homo sapiens with 2 samples.

Results

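The replication-dependent histone genes of the human histone clusters were examined in an m6A-seq experiment on GM12878, a human lymphoblastoid B cell line. The mark, N6-methyladenosine (m6A), is an adenosine base of RNA that carries a methyl group. RNA was fragmented, fragments bound by an m6A antibody were sequenced as the immunoprecipitated (IP) library, and unselected fragments were sequenced as the input. There was 1 library of each kind from cells grown in RPMI with 15% FBS, so differences between IP and input have no replicate check and no p-value is given. One label field names mouse embryonic stem cells, whereas organism is given as human and the cell line as GM12878.

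The genes were selected on their name, which had to start with HIST1H, HIST2H, HIST3H or HIST4H, and on a measured value, the mean input level in scaled coverage units, which had to reach 1 on the longest transcript listing of the gene. Of 74 such names, 66 met the minimum, out of 10756 measured genes among 47352 gene names in all. The input levels below are therefore a description of the selected genes. The 66 genes comprised 4 linker histone H1 genes, 16 H2A genes, 19 H2B genes, 13 H3 genes and 14 H4 genes. RefSeq places 49 of them on chromosome 6, 16 on chromosome 1 and 1 on chromosome 12, and classes 64 as protein coding and 2, HIST2H2BA and HIST2H2BC, as pseudogenes. In 3 pairs, HIST2H4A with HIST2H4B, HIST2H2AA3 with HIST2H2AA4 and HIST2H3A with HIST2H3C, both genes carried the same values, which leaves 63 distinct sets of values.

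Core histones H2A, H2B, H3 and H4 form the nucleosome around which DNA is wrapped, and H1 binds the linker DNA between nucleosomes. The cluster genes are expressed mainly during S phase, when newly made DNA is packed, and their mRNAs are unusual: most have no intron and end in a conserved stem-loop, bound by SLBP, in place of a poly(A) tail. Some cluster genes, among them HIST1H2BD, HIST1H2BK, HIST1H2AC and HIST2H2BE, are also known to give polyadenylated transcripts that run past the stem-loop. m6A in mRNA is known to be concentrated in long internal exons, near stop codons and in 3′ untranslated regions, and it acts through reader proteins on mRNA stability, processing and translation.

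Coverage had been computed by the authors in windows 100 nt long whose starts lay 50 nt apart along the exons. Coverage is a mean depth per base, so levels of genes of different length can be compared. Its values are in the authors' scaled units, and 1 unit stood for 5.84 reads over each base of the input and for 3.71 of the IP. At an assumed read length of 36 nt the listings held 51.7 M input and 58.5 M IP reads in all. Between 126 and 18629 input reads and between 42 and 13609 IP reads lay on each histone gene. Of the markers examined in the input, all 8 B cell genes were measured (lowest 9.93), while 0 of 8 pluripotency genes were, with a highest level of 0.153. Of the genes of other blood lineages, 2 of 6 T cell genes (LCK at 8.28 and CD3E at 1.52), 1 of 6 myeloid genes (ITGAM at 1.12) and 0 of 6 erythroid genes were measured.

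Histone transcripts were abundant in the input. Their median scaled input coverage was 13.97, against 3.75 over all measured genes. They held 0.241% of the input coverage and 0.131% of the IP coverage on the longest listings of all genes. In these shares, values carried by a pair of genes were counted for both. HIST1H1C, which encodes the linker histone H1.2, stood highest at 153 in input and 176 in IP. The H4 gene HIST1H4C followed at 132 in input and 61.0 in IP. The H2B gene HIST1H2BK stood at 98.6 and 132. The IP lay above the input in HIST1H1C and HIST1H2BK and below it in HIST1H4C. HIST2H4A and HIST2H4B each stood at 55.9 in input and 62.6 in IP, and HIST1H4E at 42.2 and 48.1. The 6 highest names held 38.4% of the summed mean input of the 66.

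**Figure D1:**
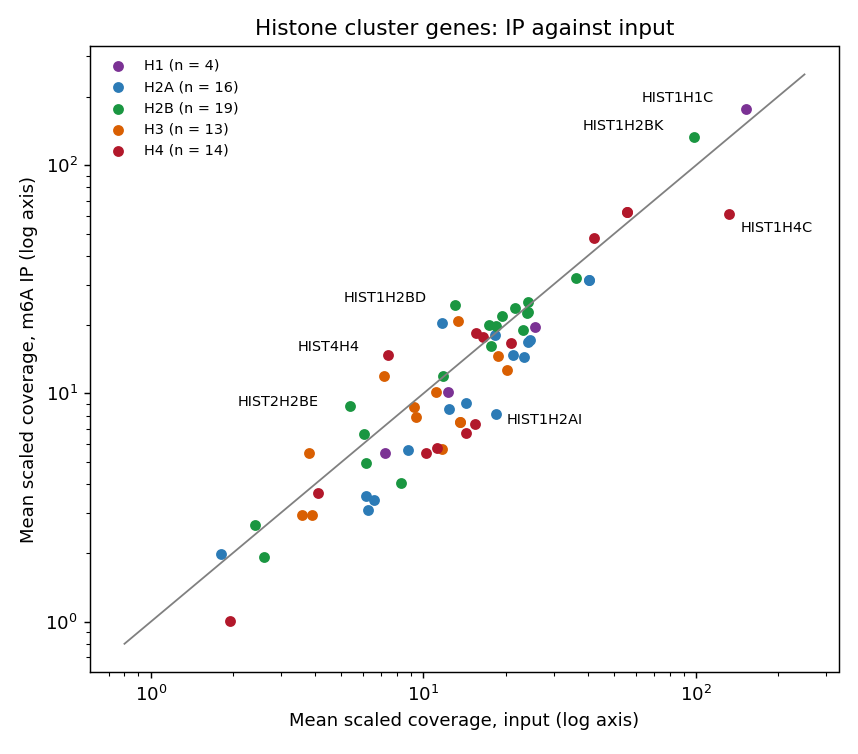
Mean scaled coverage of the 66 histone cluster genes in the input (horizontal, log axis) and in the m6A IP (vertical, log axis), 1 point a gene, coloured by histone class; the grey line marks equal coverage. HIST1H4C (132 in the input, 61.0 in the IP) and HIST1H2AI (18.4 and 8.16) lie far below the line, and HIST4H4 (7.38 and 14.7) and HIST1H2BD (13.1 and 24.3) above it.

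At the selection minimum, the genes just inside were HIST3H2A, at 1.81 in the input and 1.97 in the IP, HIST1H4L, at 1.95 and 1.01, and HIST3H2BB, at 2.41 and 2.66. Just outside were the H3 gene HIST1H3E, at 0.525 in input and 3.42 in IP, and the H1 genes HIST1H1A, at 0.0991 and 0.184, and HIST1H1T, at 0.0900 and 1.26. HIST1H1T encodes a testis-specific linker histone. HIST1H3E and HIST1H1T thus had few input reads and an IP coverage above the input, by a ratio of 6.51 (95% interval 4.59 to 9.20) and 14.0 (7.49 to 29.0). These intervals, like all those given for ratios below, are exact conditional binomial intervals on the implied reads and cover counting error only, as duplicate reads from PCR are not separate molecules. The other 5 names below the minimum, HIST3H3, HIST1H2APS1, HIST1H4G, HIST1H2AA and HIST1H2BA, had input levels between 0 and 0.0502.

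Enriched regions were rare among the histone genes. The authors' deposited window score is on a log2 scale: IP coverage over the gene's median IP, divided by input coverage over the gene's median input, each increased by 1. It therefore measures a window against its own gene. A region was called where at least 2 consecutive windows scored 2 or more, that is 4-fold. Of the 66 histone genes, 3 had a region, HIST1H2BD, HIST1H4J and HIST1H4K, which is 4.55% (exact Clopper-Pearson interval 0.947 to 12.7). The interval treats genes as independent, which near-identical genes such as HIST1H4J and HIST1H4K are not, so it describes the count only. Over all measured genes the share was 44.2%. It was 22.5% over the 3690 measured genes with the histone genes' range of 8 to 45 windows, and 14.4% over the 404 of these with 1 exon, both sets including the histone genes. Histone listings were short, with a median of 10 windows against 55 over all measured genes, and 60 of the 66 had 1 exon. The median was 29 windows over the 3690 genes and 17 over the 404, so these sets share the range but not the length of the histone listings. A longer listing gives more windows in which a region or a high score can occur. At least 1 window scored 2 or more in 8 histone genes, against 48% of all measured genes.

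The gene-level score, the highest mean score of 2 consecutive windows, had a median of 0.71 over the histone genes (quartiles 0.38 and 1.32). The median was 1.81 over all measured genes, 1.19 over those in the range of 8 to 45 windows and 0.80 over the single-exon genes among them. Scores were highest in HIST1H2BD at 2.53, HIST1H4J at 2.41, HIST1H4K at 2.22, HIST1H3D at 2.12, HIST1H1C at 1.90 and HIST1H3H at 1.74. They were lowest in HIST2H2AC at -0.03, HIST1H2AH at -0.01, HIST1H2BH at 0.01, HIST1H2BM at 0.04, HIST1H4A at 0.09 and HIST1H2BN at 0.12. In this second group no pair of consecutive windows stood clearly above its gene's median, while single windows could lie below it, down to -1.23 in HIST1H2AH and -1.11 in HIST1H4A.

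Gene-wide IP over input, on the scale of log2 of the mean IP plus 1 over the mean input plus 1, does not divide out an enrichment shared by the whole gene. Its median was -0.24 over the histone genes (quartiles -0.56 and 0.11) and 0.35 over all measured genes. It was 0.19 over the measured genes of 8 to 45 windows and -0.01 over the single-exon genes among these. Of the 66 histone genes, 43 (65.2%) lay below 0, against 32.7% of all measured genes. The share below 0 was 37.8% over the measured genes of 8 to 45 windows and 50.7% over the single-exon genes among these. A gene-wide log2 ratio of 1 or more, which is 2-fold, was reached by 0 of the 66 histone genes and by 30.7% of all measured genes. Over the measured genes of 8 to 45 windows it was reached by 23.0%, and over the single-exon genes among them by 20.3%. The 0 depends on the input minimum: HIST1H3E and HIST1H1T, which lay below that minimum, had log2 ratios of 1.53 and 1.05. A value of -1 or less was found in 2 histone genes (3.03%), HIST1H4C and HIST1H2AI, and in 2.16% of all measured genes. It was found in 0.352% of the measured genes of 8 to 45 windows and in 1.73% of the single-exon genes among them. Counting intervals of the plain ratio of IP to input lay above 1 in 16 histone genes, against 62% of all measured genes, below 1 in 37, against 26.2%, and held 1 in 13. Where 0 lies depends on the scaling between the libraries, whose factor is not given in the sources used here. With coverage taken as a share of each library's total, the median moved to -0.90 for histone genes and to -0.28 for all measured genes, and 64 of 66 histone genes lay below 0, against 60.6% of all measured genes.

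**Figure D2:**
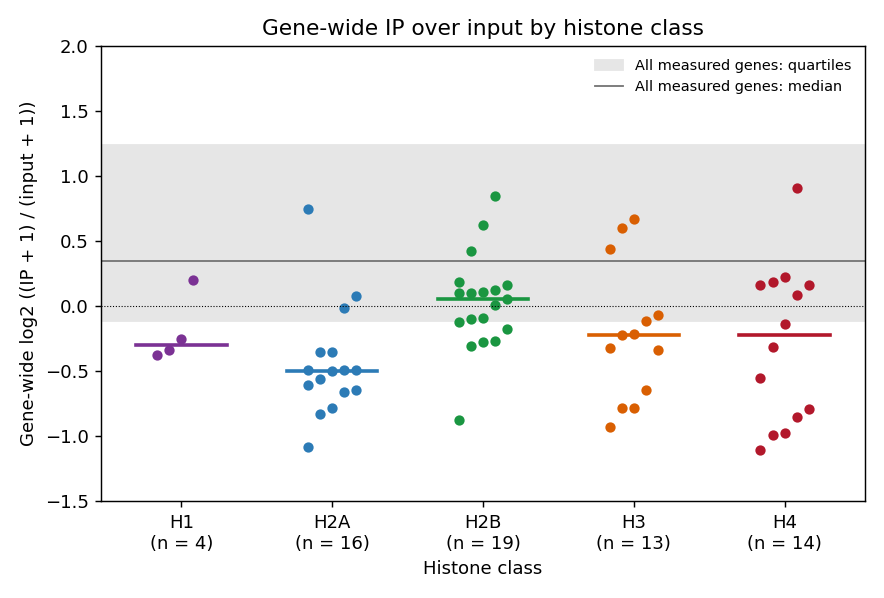
Gene-wide log2 of IP over input (vertical) for each histone gene by class (horizontal), with class medians as coloured bars and the quartiles and median of all measured genes as a grey band and line. The H2A median (-0.50) lies lowest and the H2B median (0.06) highest, and 0 of the 66 selected histone genes reach a value of 1.

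The linker histone genes HIST1H1B, HIST1H1C, HIST1H1D and HIST1H1E are single-exon genes of 15 or 16 windows. Their gene-wide log2 ratios were -0.34, 0.20, -0.25 and -0.38, so HIST1H1C was the 1 linker gene above 0. Its mean coverage of 153 in the input and 176 in the IP gives a ratio of 1.15 (1.12 to 1.17). HIST1H1B stood at 7.23 in the input and 5.50 in the IP, HIST1H1D at 12.4 and 10.2, and HIST1H1E at 25.6 and 19.5.

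Along HIST1H1C the IP was raised near the 5′ end. In the windows numbered 2 and 3 from the 5′ end the input was 68.9 and 110 and the IP 237 and 346, with ratios of 3.45 and 3.16. In the windows numbered 4 to 15 the ratio lay between 0.559 and 1.42, including windows 10 to 12, where coverage was high in both libraries. The 5′ windows scored 1.96 and 1.84 and so lay just under the threshold of 2.

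The H2A genes had the lowest gene-wide ratios. Their median was -0.50 (range -1.09 to 0.75), and 14 of 16 lay below 0. HIST1H2AI had the lowest value of the class, at 18.4 in the input and 8.16 in the IP, a ratio of 0.443 (0.396 to 0.493) and a log2 ratio of -1.09. Its windows 1 to 9 from the 5′ end had ratios between 0.267 and 0.737, and its last window, at an input of 0.848 and an IP of 2.82, scored 2.30. HIST1H2AH, at 12.4 in input and 8.54 in IP, and HIST2H2AC, at 24.6 and 17.2, had no window that scored above 0.11 and 0.02. HIST3H2A was the other H2A gene above 0, at a log2 ratio of 0.08 whose ratio interval (0.839 to 1.41) holds 1.

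HIST1H2AC was the H2A gene that stood apart. It had 11.7 in the input and 20.4 in the IP, a ratio of 1.74 (1.60 to 1.89) and a log2 ratio of 0.75. The IP rose over its 3′ part: in windows 8 and 9 of 11 the input was 14.5 and 19.9 and the IP 40.8 and 55.1, with ratios of 2.81 and 2.77. In its windows 1 to 6 the ratio was 0.525 to 1.23. No window scored above 1.21.

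The H2B genes had the highest class median, 0.06 (range -0.88 to 0.84), with 11 of 19 above 0. The other 8 lay below 0, against 65.2% of the 66 histone genes. HIST1H2BB was the low exception, at 8.28 in the input and 4.05 in the IP, a log2 ratio of -0.88. HIST1H2BH, at 23.2 in the input and 19.0 in the IP, HIST1H2BM, at 36.4 and 32.0, and HIST1H2BN, at 21.7 and 23.8, had ratios of 0.818, 0.881 and 1.09 and no window that scored above 0.31.

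HIST1H2BD had the highest gene-level score and the highest gene-wide H2B ratio, and it is 1 of 6 histone genes whose listing had more than 1 exon. Its promoter sequence is shown because it has the highest gene-level score of the histone genes. The bases run 5′ to 3′ up to the start site, at chr6:26158011-26158120 on the plus strand of GRCh38.p14, from RefSeq, with capitals marking CCAAT on either strand and TATAAA.
HIST1H2BD: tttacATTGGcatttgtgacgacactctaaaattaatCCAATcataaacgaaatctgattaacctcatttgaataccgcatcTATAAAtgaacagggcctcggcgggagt
Exon 1, of 9 windows, had an input of 23.4 and an IP of 32.0, a ratio of 1.37 (1.27 to 1.46). Exon 2, of 8 windows, had an input of 1.51 and an IP of 15.7, a ratio of 10.4 (8.40 to 13.0). The intervals of the exons lie far apart. The region covered windows 2 to 4 of exon 2, where the input was 2.71, the IP 29.97 and the ratio 11.1 (8.52 to 14.5), with a peak score of 2.55. Within exon 1 the ratio was 2.51, 2.67 and 2.08 in the first 3 windows and 0.953 to 1.23 in the rest. Exon 2 thus held 98 of the input reads and 649 of the IP reads, against 1708 and 1484 in exon 1. The region rests on the longer listing: with the shortest listing of the gene its score was 0.73, and with medians taken over the kept listing 1.42, below the threshold in both cases.

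HIST1H2BK, also with 2 exons, had even ratios. Its exon 1 stood at 113 in the input and 150 in the IP, a ratio of 1.33 (1.29 to 1.37), and its exon 2 at 82.3 and 112, a ratio of 1.36 (1.31 to 1.41). The exon intervals overlap, unlike those of HIST1H2BD. HIST2H2BF had a ratio of 0.729 (0.641 to 0.827) in exon 1, at 3.29 in input and 2.39 in IP, and almost no coverage in exon 2, at 0.134 and 0.177. The pseudogene HIST2H2BA stood at 8.46 in the input and 6.79 in the IP in exon 1 as numbered in the table, a ratio of 0.803, and at 0.0303 and 0 in exon 2.

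HIST2H2BE had a single long exon of 45 windows, and its ratio differed along it. The first 10 windows from the 5′ end had an input of 16.7 and an IP of 22.3, a ratio of 1.33 (1.23 to 1.44). The later 35 windows had an input of 2.13 and an IP of 4.95, a ratio of 2.33 (2.09 to 2.57). Most of the excess in the later windows lay in windows 15 to 21, with ratios of 3.14 to 9.95. The highest of these, window 18, had an input of 1.37 and an IP of 13.7, and its score of 1.86 missed the threshold. Gene-wide, the input was 5.37, the IP 8.80 and the log2 ratio 0.62.

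The H3 genes had a median gene-wide log2 ratio of -0.22 (range -0.93 to 0.67), with 10 of 13 below 0, against 65.2% of the 66 histone genes. HIST1H3J was lowest, at 11.7 in the input and 5.69 in the IP, a log2 ratio of -0.93. HIST1H3H was highest, at 7.16 in the input and 12.0 in the IP, a log2 ratio of 0.67. Its excess lay in windows 6 and 7 of 10 from the 5′ end, where the input was 5.01 and 6.74 and the IP 18.9 and 29.4, with ratios of 3.78 and 4.37. HIST1H3A was the third H3 gene above 0, at 3.80 in the input and 5.49 in the IP.

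HIST1H3D, with 2 exons and a log2 ratio of 0.60, had an uneven profile. Exon 1 from the 5′ end had an input of 9.62 and an IP of 5.59, a ratio of 0.581 (0.496 to 0.675). In RefSeq the span of HIST1H3D covers HIST1H2AD, which has the same strand and 5′ end and a ratio of its own of 0.642 (0.559 to 0.738), so reads of these genes may not be told apart there. Exon 2 had an input of 16.3 and an IP of 32.8, a ratio of 2.01 (1.87 to 2.16). Its IP peaked at 101 in the window numbered 16 from the 5′ end, over an input of 21.3, with a score of 2.29. The next window scored 1.96, so no region was called. HIST2H3PS2, the other H3 gene with 2 exons, had a ratio of 0.931 (0.729 to 1.20) in exon 1, at 2.44 in input and 2.28 in IP, and of 0.746 (0.599 to 0.932) in exon 2, at 5.30 and 3.95.

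The H4 genes spread most widely, from -1.11 in HIST1H4C to 0.91 in HIST4H4, with a median of -0.23. Of the 14, 8 lay below 0, near the 65.2% of the 66 histone genes. HIST1H4C, HIST1H4F, HIST1H4B and HIST1H4A had an IP below the input in every window. HIST1H4F stood at 14.3 in the input and 6.69 in the IP, a ratio of 0.467 (0.407 to 0.535). HIST1H4B stood at 15.4 and 7.34, a ratio of 0.476 (0.417 to 0.541), and HIST1H4A at 10.2 and 5.48, a ratio of 0.536 (0.459 to 0.624). Along HIST1H4A, in table order, the ratio was at least 0.813 in windows 1 to 3 and 0.363 to 0.378 in windows 5 to 7. HIST1H4C, the most covered of them, had a ratio of 0.460 (0.440 to 0.481), a narrow interval from 8593 input and 2517 IP reads. Human H4 cluster genes are known to encode an almost invariant protein, so genes with low and high ratios here share most of their product.

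HIST4H4, the 1 histone gene on chromosome 12, had the highest gene-wide ratio of all 66. It stood at 7.38 in the input and 14.7 in the IP, a ratio of 1.99 (1.78 to 2.24). Both ends were raised: the ratio was 2.98 to 3.64 in windows 2 to 4 from the 5′ end and 1.96 and 2.20 in the last windows, against 0.744 to 1.06 between them. Its gene-level score, which is taken against the gene median, was 1.13.

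HIST1H4J and HIST1H4K each had a region at the 5′ end. Their promoters are shown because they are near copies, with 1 base differing among the 110 before the start site and 0 among the 50 after it. They lie at chr6:27823982-27824091 on the plus strand and chr6:27831561-27831670 on the minus strand of GRCh38.p14, run 5′ to 3′, and carry TATAAA in capitals.
HIST1H4J: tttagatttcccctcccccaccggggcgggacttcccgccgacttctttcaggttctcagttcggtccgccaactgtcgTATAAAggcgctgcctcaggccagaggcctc
HIST1H4K: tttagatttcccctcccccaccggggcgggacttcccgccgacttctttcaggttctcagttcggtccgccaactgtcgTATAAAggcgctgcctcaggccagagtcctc
In HIST1H4J windows 1 and 2 formed the region, with an input of 28.1 and an IP of 57.2, a ratio of 2.03 (1.80 to 2.30) and a peak score of 2.56. In its windows 3 to 7 the input was 11.2 to 18.9 and the IP 2.68 to 9.20, with ratios of 0.195 to 0.625. In HIST1H4K windows 2 and 3 formed the region, with an input of 16.7 and an IP of 38.1, a ratio of 2.28 (1.95 to 2.67) and a peak score of 2.25. Its window 4, next to the region, had an input of 27.7 and an IP of 48.6 and scored 1.88. In its windows 5 to 8 the input was 11.8 to 19.6 and the IP 3.80 to 8.76, with ratios of 0.194 to 0.608. The scores of both genes thus rest on a moderate excess of IP at the 5′ end together with an IP below input from window 3 of HIST1H4J and window 5 of HIST1H4K onward. Without the division by gene medians HIST1H4K scored 1.13 and HIST1H4J less, and neither region was called. How reads were assigned between such near-identical genes is not given in the sources used here, so the profiles of HIST1H4J and HIST1H4K are not independent observations.

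**Figure D3:**
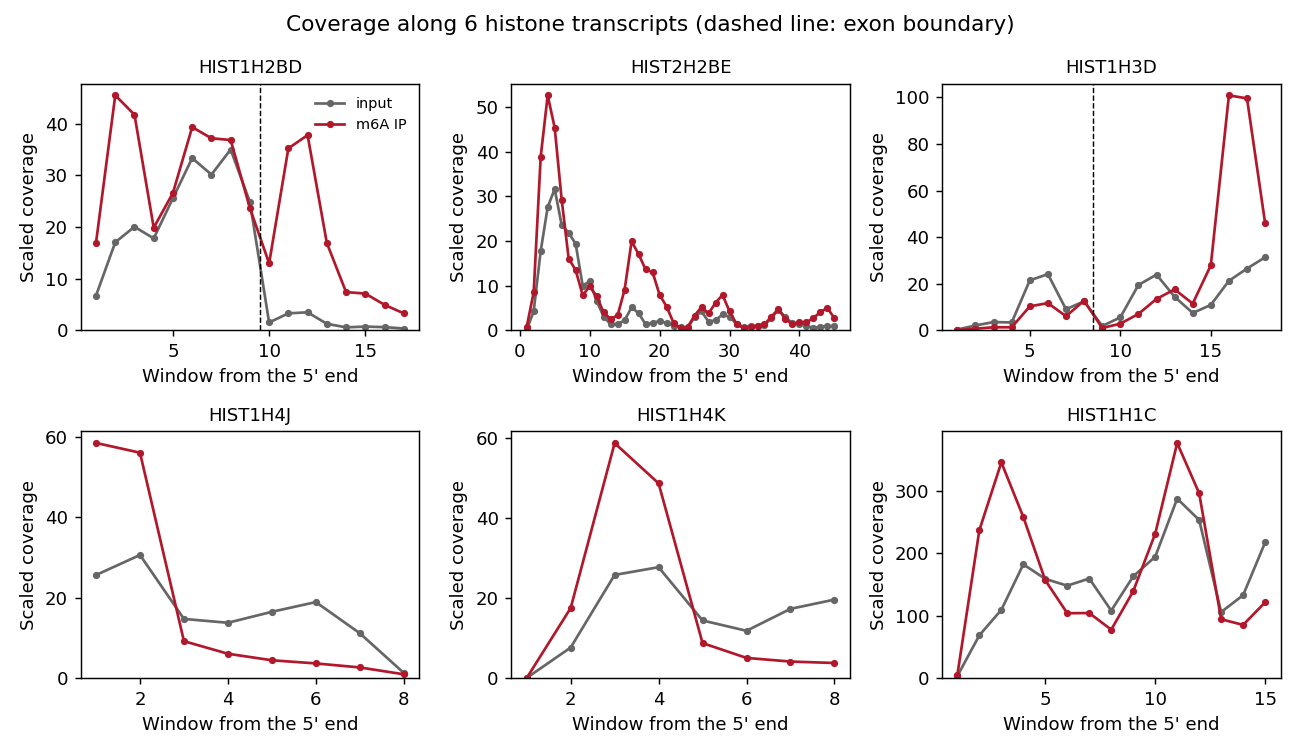
Scaled coverage (vertical) by window from the 5′ end (horizontal) in the input (grey) and the m6A IP (red) for 6 histone genes; dashed lines mark exon boundaries. IP exceeds input in exon 2 of HIST1H2BD, around window 18 of HIST2H2BE, near the 3′ end of HIST1H3D and at the 5′ end of HIST1H4J, HIST1H4K and HIST1H1C.

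Among the remaining H4 genes, HIST2H4A and HIST2H4B had 2 adjacent windows at the start of the table order with an IP of 131 and 134 over an input of 57.7 and 64.2, ratios of 2.26 and 2.08, and scores of 1.47 and 1.35. HIST1H4E had ratios of 3.25 and 2.26 in its first 2 windows from the 5′ end and of 0.625 to 1.09 in the others, with a highest score of 1.23. These ratios were as large as those in the regions of HIST1H4J and HIST1H4K, but the scores lay under the threshold. HIST1H4I, at 11.2 in the input and 5.77 in the IP, had ratios of 0.354 to 0.585 in windows 1 to 7 and a score of 3.13 in its last window, which had an input of 0.183 and an IP of 4.40. HIST2H3A and HIST2H3C showed the same form among the H3 genes, with a score of 2.43 in the last window of the table, at an input of 0.0925 and an IP of 1.14. These high scores, like that in the last window of HIST1H2AI, lie in windows with little input, and 1 window makes no region.

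Position along the gene was compared over the 48 single-exon histone genes that could be oriented from RefSeq's strand. Each listing was divided into 3 segments from 5′ to 3′, and the log2 ratio of IP plus 1 to input plus 1 was taken in each. Over all 48 genes the 5′ segment was highest in 23, the middle in 8 and the 3′ segment in 17. The H4 and H2A genes differed most in where their ratio was highest. In H4 genes the 5′ segment was highest in 8 of 10, and the medians from 5′ to 3′ were 0.07, -0.43 and -0.98. In H2A genes the 3′ segment was highest in 9 of 13, with medians of -0.37, -0.82 and -0.25. H2B genes had their highest ratio at the 5′ end in 7 of 14, with medians of 0.25, -0.02 and -0.40. The 7 H3 genes were spread almost evenly, with the 5′, middle and 3′ segments highest in 2, 2 and 3, and medians of -0.50, -0.58 and 0.07. H1 genes had their highest ratio at the 5′ end in 3 of 4, with medians of 0.15, -0.44 and -0.20. HIST1H4E, for example, fell from 1.12 at the 5′ end to -0.48 and -0.63. Only 44 other single-exon genes of the same range of windows were oriented and compared. Their medians were 1.20, 1.90 and 2.38, and the 3′ segment was highest in 24. The 404 measured single-exon genes of that range, histone genes included, had a gene-wide log2 median of -0.01. The level of the 44 is therefore not typical of single-exon genes of this length. Genes within a class share much of their sequence, so they are not independent, and the differences between classes were not tested.

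**Figure D4:**
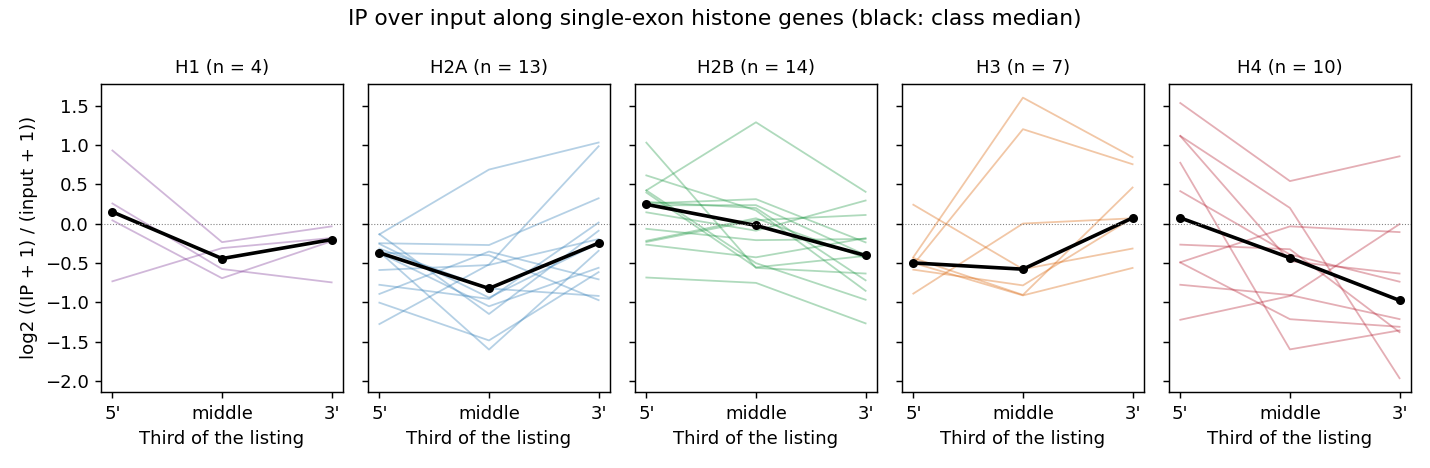
Log2 ratio of IP to input (vertical) in the 5′, middle and 3′ segments (horizontal) of 48 single-exon histone genes, 1 thin line a gene, with the class median in black. The H4 median falls from 0.07 to -0.98, and the H2A median is lowest in the middle, at -0.82.

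H2A and H2B genes often lie head to head, with a short shared promoter between them, which allows neighbours to be compared. There were 10 such divergent pairs with start sites at most 500 nt apart in RefSeq (median 238 nt). The H2B gene had the higher gene-wide log2 ratio in 9 of 10, and in 7 of these the intervals of the ratios did not overlap. The median difference, H2B minus H2A, was 0.46 on the log2 scale. These genes also enter the H2A and H2B class medians above, and genes within a class share sequence. The pairs are therefore neither independent of each other nor separate support for the class difference, which was not tested. In HIST1H2AI and HIST1H2BL the H2A gene had 18.4 in input and 8.16 in IP, and the H2B gene 24.1 and 22.4, a difference of 0.99. In HIST1H2AG and HIST1H2BJ, with a difference of 0.11, and in HIST3H2A and HIST3H2BB, with a difference of 0.02, the intervals overlapped.

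The pairs at the ends of this order are shown with their promoters. In HIST2H2AC and HIST2H2BE the difference was 1.11, with log2 ratios of -0.49 and 0.62. The ratio of HIST2H2AC was 0.699 (0.642 to 0.760). The long 3′ part of HIST2H2BE adds to its ratio, but its first 10 windows alone stood at 1.33 (1.23 to 1.44), above HIST2H2AC. In HIST1H2AC and HIST1H2BC the order was the other way round: HIST1H2AC had a log2 ratio of 0.75 and HIST1H2BC, at 24.1 in input and 25.2 in IP, 0.06. The sequences, from RefSeq on GRCh38.p14, run 5′ to 3′ up to each start site, with capitals marking CCAAT on either strand, TATAAA, and ATTTGCAT. HIST2H2AC lies at chr1:149886808-149886917 on the plus strand, HIST2H2BE at chr1:149886683-149886792 on the minus strand, HIST1H2AC at chr6:26124062-26124171 on the plus strand and HIST1H2BC at chr6:26123927-26124036 on the minus strand.
HIST2H2AC: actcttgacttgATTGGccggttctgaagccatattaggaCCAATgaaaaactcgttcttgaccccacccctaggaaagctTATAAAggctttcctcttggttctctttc
HIST2H2BE: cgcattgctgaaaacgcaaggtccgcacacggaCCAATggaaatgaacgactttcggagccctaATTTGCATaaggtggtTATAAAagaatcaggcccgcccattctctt
HIST1H2AC: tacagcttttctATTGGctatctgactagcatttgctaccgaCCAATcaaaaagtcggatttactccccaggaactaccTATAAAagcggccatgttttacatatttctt
HIST1H2BC: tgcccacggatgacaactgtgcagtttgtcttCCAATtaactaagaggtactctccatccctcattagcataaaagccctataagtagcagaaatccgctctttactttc
Both pairs carry CCAAT in each gene shown, while ATTTGCAT occurs within these 110 bases in HIST2H2BE alone of the 4.

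**Figure D5:**
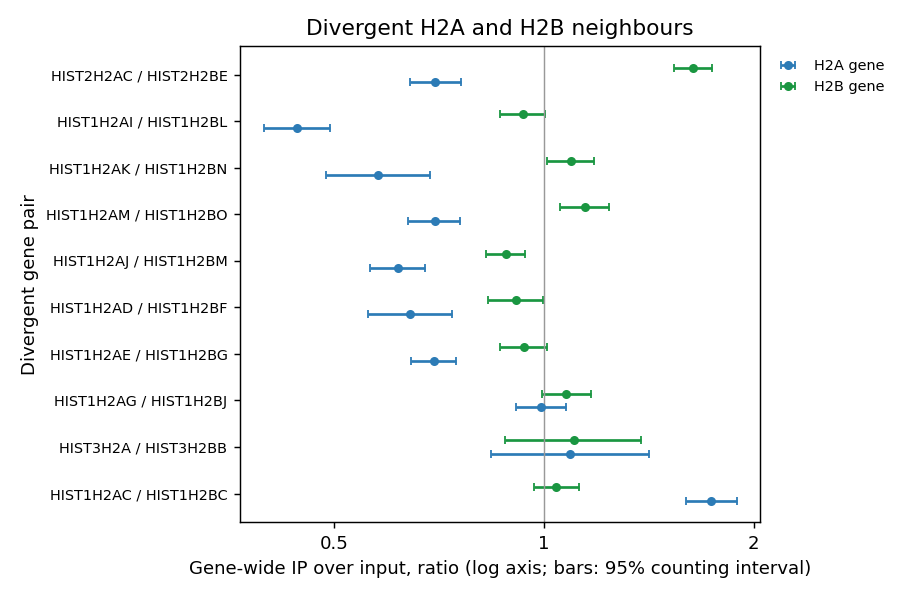
Ratio of IP to input (horizontal, log axis) for the H2A gene (blue) and the H2B gene (green) of 10 divergent pairs (vertical), with 95% counting intervals as bars. The H2B gene lies to the right in 9 pairs, by most in HIST2H2AC and HIST2H2BE, and to the left in HIST1H2AC and HIST1H2BC.

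Over the 250 bases before the start, searched on both strands, the histone classes differed in promoter letters. RefSeq's table held 59 of the 66 genes. The octamer ATTTGCAT, bound by OCT1, was found in 13 of 17 H2B and 10 of 15 H2A promoters, in 1 of 11 H3 and in 0 of 4 H1 and 0 of 12 H4 promoters, against 1.66% of all 27305 promoters in the table. CCAAT was found in 50 of 59, among them 3 of 12 H4 promoters, against 33.0% of all. TATAAA was found in 38 of 59, against 11.1%. AAACACA, the H1 box, was found in 4 of 4 H1 promoters and in 0 of the other classes, against 4.95% of all. Neighbouring H2A and H2B genes share parts of these windows, so an octamer between them can be counted for both. A match describes the letters in the window and is not evidence of binding.

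Genes that work with the cluster histones were compared as a background to these values. Of 12 replacement histone variants, 10 were measured and 1 had a region, against 44.2% of all measured genes. Most such variants are also made outside S phase, from mRNAs with introns or poly(A) tails. Their gene-wide log2 ratio had a median of -0.14. Of the 10, 6 lay below 0, against 32.7% of all measured genes. The 1 with a region was H2AFX, which encodes the DNA damage histone H2A.X and, like most cluster genes, had a listing of 1 exon. It stood at 43.9 in the input and 256 in the IP, a log2 ratio of 2.51 and a score of 2.78. H3F3C had the lowest score, 0.43, at 16.2 in the input and 11.4 in the IP.

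Of 20 genes that transcribe, process or degrade histone mRNA, 18 were measured and 10 of them held a region. The median score was 2.21 and the median log2 ratio 0.67, against 1.81 and 0.35 over all measured genes. The highest score was that of ZCCHC11, a terminal uridylyltransferase, at 5.17. UPF1, a helicase of mRNA decay, scored 4.43, and ZCCHC6, another uridylyltransferase, 4.35. ERI1, the exonuclease that trims the stem-loop end, scored 4.07. NPAT, the coactivator of histone transcription, scored 3.52, and CASP8AP2, a component of histone locus bodies, 3.42. The others with a region were MIF4GD at 2.91, the cleavage factor CPSF2 at 2.84, the cap-binding subunit NCBP2 at 2.33 and HINFP, the H4 transcription factor, at 2.08. SLBP, which binds the stem-loop, scored 1.60 with no region, and LSM1 was lowest at 0.68. These genes had longer listings than the histone genes, with a median of 82.5 windows, and the share with a region over all measured genes was 44.2%.

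Of 20 histone chaperones, all measured, 9 held a region, a share close to the 44.2% of all measured genes, and the median score was 1.99 over listings with a median of 72.5 windows. CHAF1A, the large subunit of the chromatin assembly factor CAF-1, was highest at 5.24, at 7.72 in input and 74.8 in IP, and NASP, which holds the soluble H3 and H4 pool, was lowest at 0.85. The others with a region were CABIN1 at 4.71, ASF1A at 3.80, UBN1 at 3.50, HIRA at 3.44, ATRX at 3.33, HJURP at 2.85, RBBP4 at 2.34 and SUPT16H at 2.19. Of 20 replication genes expressed in S phase with the histones, all measured, 8 held a region, also close to the 44.2% of all measured genes, over listings with a median of 62 windows. The median score was 1.85 and the median log2 ratio of -0.13. The helicase subunit MCM3 was highest at 5.54, at 22.7 in input and 77.6 in IP, and RFC4, a clamp loader subunit, lowest at 0.37. The others with a region were MCM2 at 5.11, MCM5 at 3.94, FEN1 at 3.77, PCNA at 2.84, RRM1 at 2.58, CDT1 at 2.53 and TK1 at 2.48.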

How the data were processed

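RNA from GM12878 cells was extracted with TRIZOL and RNeasy columns, and libraries kept the strand through dUTP, per the labels' protocols. TopHat 1.1.3, a read aligner, and the build hg19 appear in the submitters' processing notes. Not given in the sources used here: which program computed coverage, its use of strand, its treatment of reads that map to several genes, the annotation and any selection of poly(A) RNA. The deposited coverage is a signal scaled per library, and the authors' window score is a log2 value, per the file headers. The score was recomputed from the coverage and differed from the deposited one by at most 1.67e-14.

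The listing with most windows was kept for each gene. Read numbers were computed from the coverage at an assumed read length of 36 nt. The step of the values was taken as 1 covered base of 1 read, and 100% of values were whole multiples of it within 0.01 step. Ratios of IP to input carry exact conditional 95% intervals from these read numbers, so the interval widths depend on the assumed length. Windows ran in genome order, since the longer terminal exon was numbered last in 91.2% of 3302 plus-strand and 7.57% of 3065 minus-strand genes of at least 3 exons, and were turned by RefSeq's strand. Names were matched to RefSeq (GRCh38.p14), whose positions were used on that build alone, for promoters, neighbours and overlaps between genes. HIST1H2AH, HIST1H3I, HIST1H3J, HIST1H4A, HIST1H4C, HIST2H2BA and HIST2H2BC had no promoter entry and were not turned. Nor were the 6 genes that shared values with another, whose windows ran in the same order on opposite strands. Calculations used scipy 1.17.1, pandas 2.3.3 and numpy 2.4.6 under Python 3.11.15, with matplotlib 3.10.9 for plots. Region calling was also tried on simulated coverage with known answers, whose outcome is not given here.

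The members, lists and rules were chosen with earlier results of these data known. Named were members with a region, the 6 highest in input, the 6 highest and 6 lowest in gene-level score and in gene-wide ratio, the 3 on each side of the input minimum, members with more than 1 exon, and from each list of other genes the highest, the lowest and those with a region. Other genes were named after their values were seen, for their class, window profile or neighbour. Alternatives covered the input minimum, pseudocount, listing, threshold, run length, centring and scaling. Each group has 1 library, so no test was run.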

Additional observations from a re-analysis of the deposited data

How the results depend on the processing

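The 3 histone genes with a region became 0 with a pseudocount of 5, with a score threshold of 3 or with runs of at least 4 windows, 18 with a threshold of 1 and 8 with runs of at least 1 window. The shares over all measured genes were then 33.9%, 26.0%, 31.0%, 71.4% and 48.0%. HIST1H3D joined at a pseudocount of 0.1, and HIST2H2BE joined HIST1H2BD when scores were not centred. The median score of 0.71 moved to 0.53 with a pseudocount of 5 and to 0.24 without centring. The median gene-wide log2 ratio of -0.24 moved to -0.58 when shifted so that all measured genes had a median of 0, with 58 of 66 genes below 0, and to -0.90 as a share of library totals. The 2 genes past 2-fold became 13 and 28 under these scalings, 7 with a pseudocount of 0.1 and 1 with a pseudocount of 5. With an input minimum of 0.5, the histone genes at a log2 ratio of 1 or more went from 0 to 1, as HIST1H3E, at an input of 0.525 and a log2 ratio of 1.53, entered. The causes of the other changes were not tested. The other 35 recomputed summary values stayed within 1.5 times the main count or spread, or within the 95% binomial interval of the main median, among them those with 1 copy of genes that share values, an alternative chosen after seeing the data. They include the spread between the highest and lowest class median but not the class medians themselves, which depended on the scaling. With the shift the H2B median moved from 0.06 to -0.29 and the H2A median from -0.50 to -0.84. As a share of library totals they moved to -0.73 and -1.25. No paired analysis was possible because each group has 1 library. Depth limits the windows with an input below 1, such as the last windows of HIST1H2BD, HIST1H4I and HIST2H3A, which rest on few reads.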
